A study of Rattus norvegicus with 6 samples.

Results

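The proteasome genes of cultured heart cells were followed across 3 treatments. They were chosen by name, as every row of the expression table whose symbol begins with Psm, a letter from a to g and a digit. This found 48 of 13843 rows, called features here because Psmb7 stands on 2 of them, so that the 48 features carry 47 symbols. Averaged over the 6 libraries, 47 of them reached 1 FPKM and were tested, among 10359 features tested in all. The 1 feature left out was Psmb11, the thymus-specific catalytic subunit, which was listed at 0.217 FPKM in 1 library and at 0 in the other 5. FPKM gives fragments relative to transcript length and to the fragments mapped in the library. Levels of different genes are therefore set side by side here, but only roughly, since the estimate for a gene can fail. Psma8 and Psmg3 were not analysed here.

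The cells were neonatal rat ventricular myocytes, primary cells isolated from the hearts of newborn rats. All 3 groups received phenylephrine (PE), an agonist of alpha-1 adrenergic receptors that is widely used to make such cells grow. Cells called PE had this agent and a control short hairpin. Cells called PE+TSA had the same hairpin and TSA, an abbreviation commonly used for trichostatin A, which blocks histone deacetylases. Cells called PE+TSA+shJIP1 had PE, TSA and a hairpin against JIP1, a scaffold protein of the JNK kinase pathway encoded by Mapk8ip1. Treatment lasted 3 days and each group had 2 libraries. Some labels call the last group a JIP1 knockout, while the treatment text gives the hairpin, which is the term kept in what follows. No source used here says how the hairpins were delivered, or whether both libraries of a group stem from different cultures. P-values therefore measure only the spread between these libraries, which may be technical.

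The proteasome is the large protease that degrades proteins tagged with ubiquitin. Its barrel-shaped 20S core is made of alpha and beta rings, and the beta subunits encoded by Psmb5, Psmb6 and Psmb7 carry the proteolytic sites. The 19S regulatory particle caps the core, binds ubiquitin, removes it, and unfolds the substrate with a ring of ATPases. Under interferon, cells build immunoproteasomes in which Psmb8, Psmb9 and Psmb10 replace the constitutive catalytic subunits, and the Psme1 and Psme2 proteins form the PA28 activator. Heart muscle relies on this system to turn over contractile proteins and to clear damaged ones.

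The hairpin's target was checked first. Mapk8ip1 read 3.77 and 4.39 FPKM with PE, 14.6 and 17.9 with PE+TSA, and 1.80 and 3.65 with PE+TSA+shJIP1. The target was thus lower in both hairpin libraries than in both PE+TSA libraries, with an adjusted p of 0.077, which missed the threshold of 0.05. PE replicate 2 stood apart from the others. Low values changed in steps that put its depth at 0.048 of that of PE replicate 1, against 0.717 to 1.34 for the other 4 libraries. Its depth was read from its values up to 8.0 FPKM and with another choice of step, where the other 4 were read up to 0.3. The figure of 0.048 is therefore approximate. It also listed 3667 features at 0, against 1407 to 1837. The 7 cardiomyocyte markers were above 0 in every library. Their summed level was 13628 and 11427 FPKM with PE, 7382 and 4270.2 with PE+TSA, and 7391 and 3883 with PE+TSA+shJIP1. Tnnt2 and Nppa made up most of each sum. All 7 were lower with TSA, by log2 differences of −2.71 to −0.41. The smallest was that of Actn2, at 702 and 652, 614 and 424, and 570.3 and 445 FPKM in that order. The fibroblast sum of 6 markers was 927 and 1452, 471 and 692, and 504 and 621 FPKM in the same order, with Col1a2 at 0 in 5 libraries. Col1a1 made up most of this sum, and Thy1 went the other way, at 3.29 and 1.56, 20.9 and 24.7, and 10.9 and 17.3 FPKM (TSA log2 difference 2.84, adjusted p = 0.0373). Smooth muscle and pericyte markers, 5 in number, summed to 1624 and 1291 FPKM with PE, 383 and 242 with PE+TSA, and 499.9 and 479.9 with the hairpin. Acta2 and Tagln made up most of each of these sums. Sums over 5 endothelial markers lay between 7.82 and 37.3 FPKM, and over 5 macrophage markers between 5.15 and 19.9. In such bulk samples, fewer cells of a type and less RNA per cell cannot be told apart, and the part of these markers in the results was not tested.

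**Figure D1:**
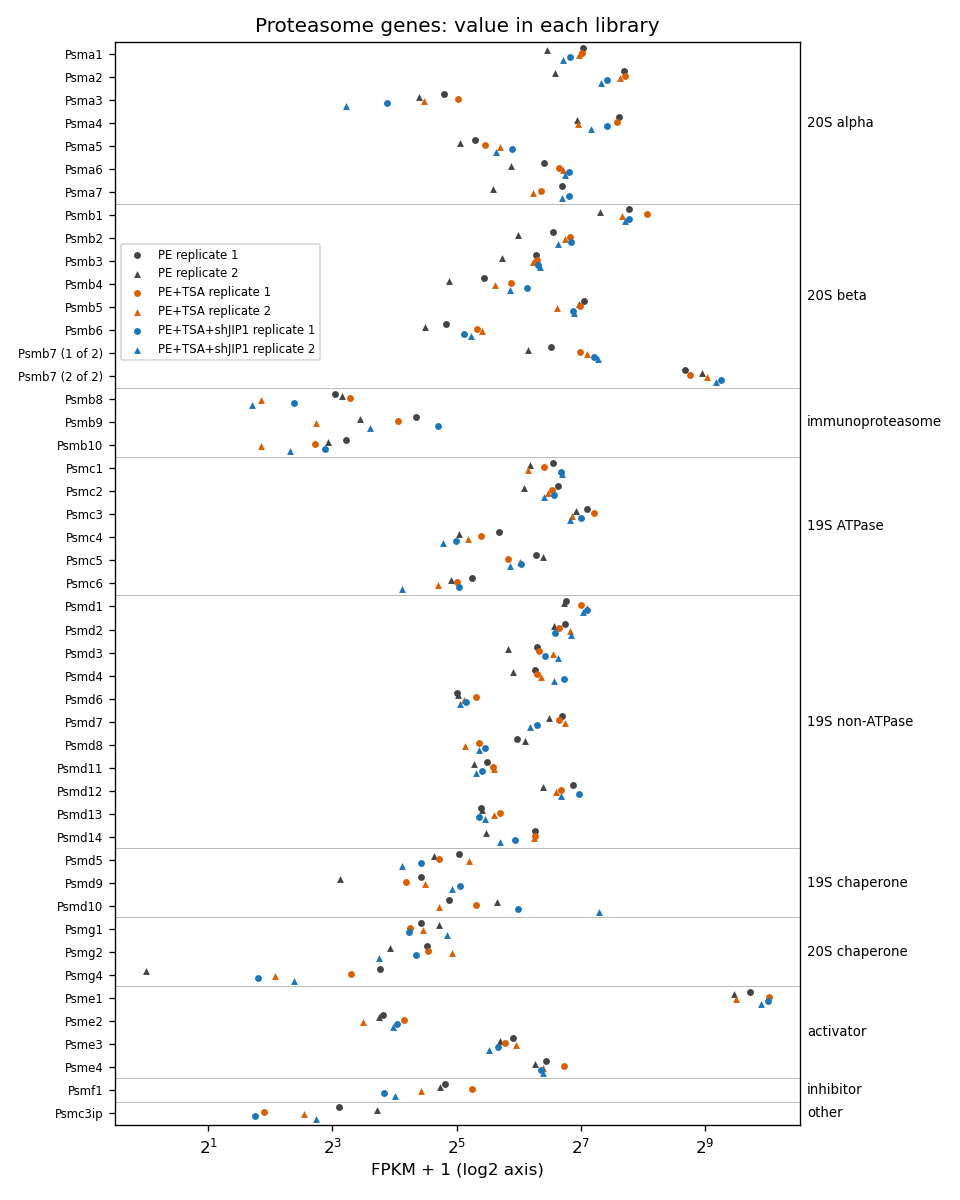
Level of each tested proteasome feature (rows, grouped by role) on a log2 axis of FPKM + 1. Colours mark the 3 groups, circles replicate 1 and triangles replicate 2. PE replicate 2, the dark triangle, is the lowest of the 6 libraries for 24 of the 47 features.

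At most 1 proteasome feature passed the test in any comparison. In the TSA comparison (PE+TSA against PE), 0 of 47 features passed an adjusted p of 0.05 in limma, where 0.811% of all features tested did. In the JIP1 hairpin comparison (PE+TSA+shJIP1 against PE+TSA), 0 of 47 passed, against 0.29% of all. In the combined comparison (PE+TSA+shJIP1 against PE), 1 of 47 passed, Psmb7 in listing 1 of 2, which was higher, against 4.11% of all features called higher and 8.27% called in either direction. These comparisons share libraries: TSA and combined share the PE libraries, TSA and hairpin the PE+TSA libraries, and hairpin and combined the hairpin libraries.

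At an unadjusted p under 0.05, 2 features were higher with TSA (Psmb6 and Psmb7 listing 1) and 2 lower (Psmd8 and Psmc3ip), where 11.6% and 7.1% of all features tested were. With the hairpin, 1 was higher (Psmd10) and 3 lower (Psma3, Psmf1 and Psmd5), against 5.93% and 8.94%. Combined, 8 were higher and 4 lower, against 17.1% and 13.6%. The groups of 2 libraries did not overlap for 13 features higher and 4 lower with TSA, beside 29.5% and 21.1% of all features. For the hairpin these were 10 higher and 14 lower, beside 24.9% and 25.1%, and for the combined comparison 17 and 12, beside 33.9% and 26.7%.

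The sizes of the differences were set beside those of all features. The median size of a log2 difference among the proteasome features was 0.25 with TSA, 0.24 with the hairpin and 0.35 combined. The same median over all features tested was 0.40, 0.35 and 0.54. The median standard error was smaller too, at 0.24 for the proteasome features and 0.32 over all features in each comparison. The proteasome features were also higher, with a median of 50.8 to 75.5 FPKM by library, against 10.4 to 12.1 over all features. The part of level in these sizes and errors was not tested. A log2 difference of at least 1 in size was reached by 1, 2 and 5 of the 47, where 15.7%, 9.77% and 24% of all features reached it. The 95% confidence interval of the log2 difference had a median half-width of 0.58, and it lay wholly between −1 and 1 for 29 features with TSA, 31 with the hairpin and 23 combined. Log2 differences here were taken between log2(FPKM + 1) values, so those of low genes are understated.

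**Figure D2:**
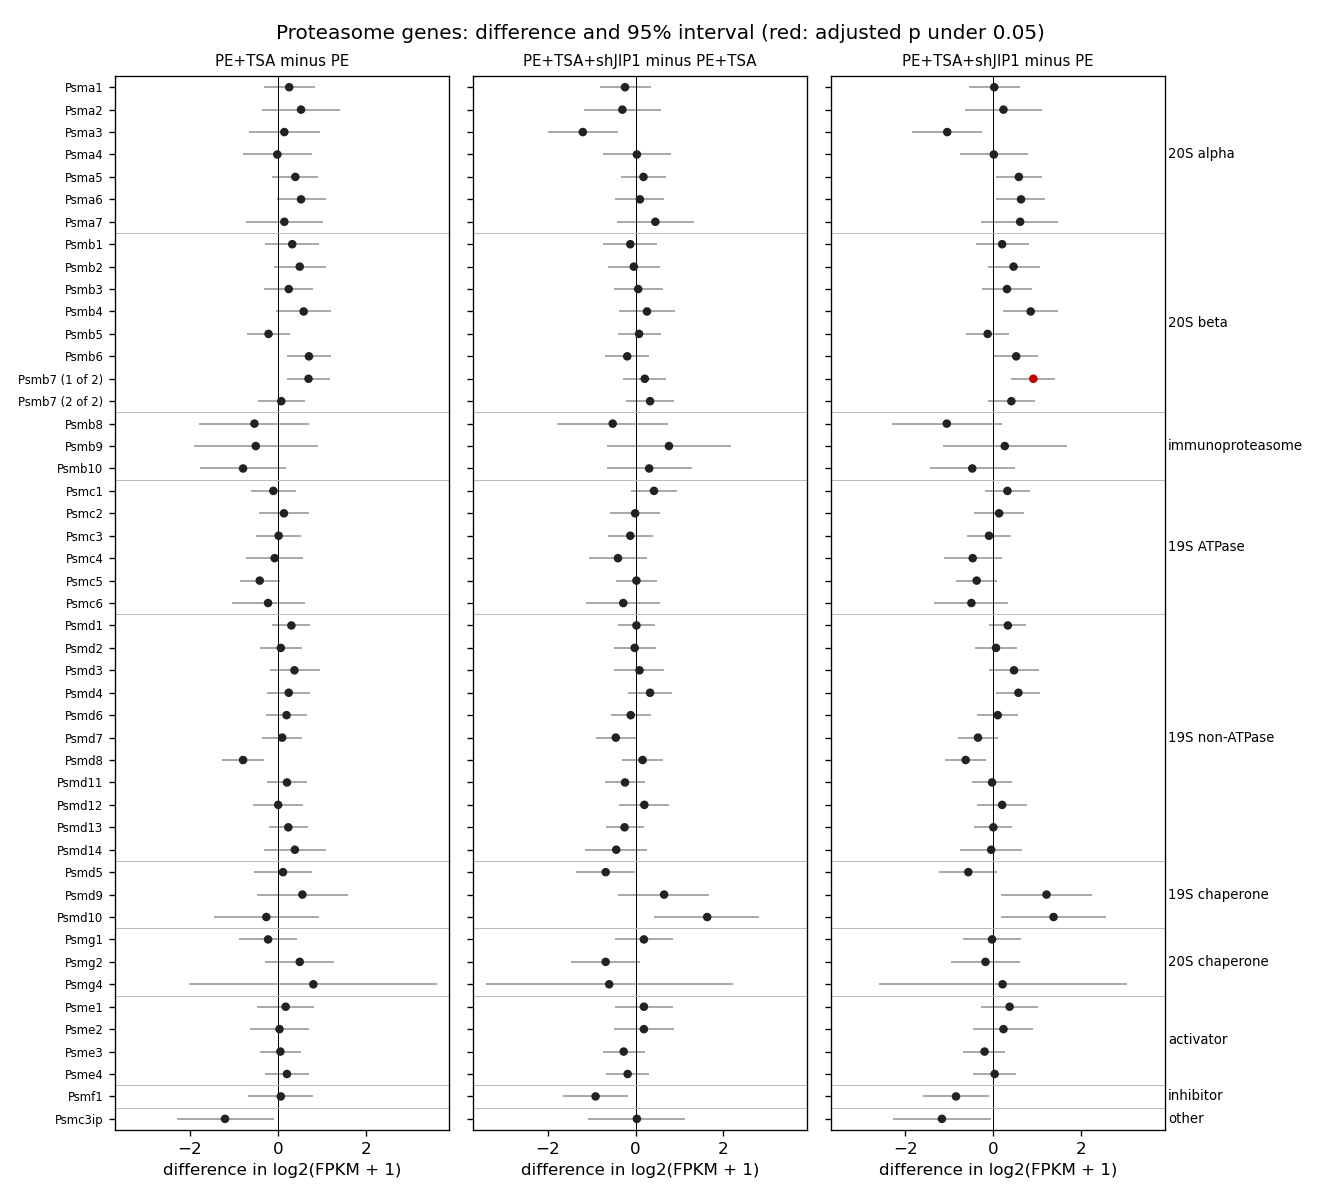
Log2 difference (x axis, log2(FPKM + 1) scale) of each tested proteasome feature in the 3 comparisons (panels), with bars for the 95% confidence interval from limma. Most intervals cross 0, and 1 feature, Psmb7 listing 1 in the combined comparison, passed the adjusted threshold.

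The sign of the median TSA difference changed when the shallow library was left out. The median log2 difference of the 47 features was 0.15 with TSA, beside 0.10 over all features tested, with 34 higher and 13 lower, where 56.9% of all features were higher and 42.9% lower. Without PE replicate 2 it was −0.02, with 21 higher and 26 lower, beside 0.01 over all features. Without PE replicate 1 it was 0.30. Between the PE libraries themselves, 38 of 47 proteasome features were lower in replicate 2, by a median of −0.33 on the log2 scale, beside −0.16 over all features. Of all features tested, 33.2% had their lowest value in PE replicate 2, against 24 of the 47 proteasome features. For the hairpin the median was 0.02, beside −0.00 over all features, with 24 higher and 23 lower (49.7% and 50.2% of all). In the combined comparison it was 0.10, the same as over all features, with 28 higher and 19 lower (55.4% and 44.4% of all).

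**Figure D3:**
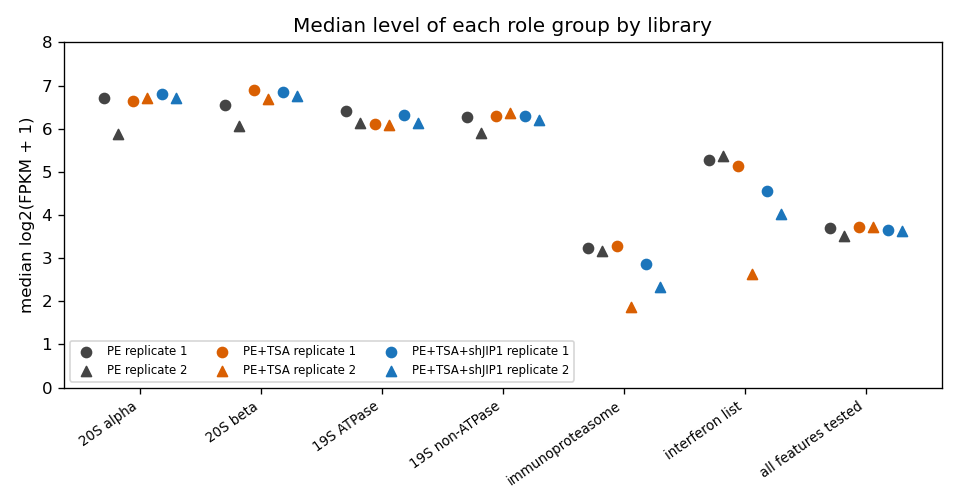
Median log2(FPKM + 1) (y axis) over the tested members of each role group, of the interferon list and of all features tested (x axis), with 1 point per library. Colours mark groups, circles replicate 1 and triangles replicate 2. PE replicate 2 is the lowest library for the 20S alpha, 20S beta and 19S non-ATPase groups and for all features tested. PE+TSA replicate 2 is the lowest for the 19S ATPases, the immunoproteasome and the interferon list, at 6.09, 1.86 and 2.64.

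The 7 alpha subunits, which form the outer rings of the core and its gate, had a median log2 difference of 0.26 with TSA, 0.03 with the hairpin and 0.23 combined. None of them passed the adjusted threshold in any comparison. Psma2 was the alpha subunit with the highest mean level, at 207 and 94.5 FPKM with PE, 208 and 198 with PE+TSA, and 170.3 and 159 with PE+TSA+shJIP1. PE replicate 2 was low and the other PE library matched the PE+TSA libraries, so that the groups overlapped (TSA log2 difference 0.53 ± 0.36 SE, adjusted p = 0.458). All 7 alpha subunits were lower in PE replicate 2 than in PE replicate 1, by a median log2 difference of −0.59. The TSA median of the alpha subunits without that library was −0.03, with 2 higher and 5 lower.

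Psma6 stood at 84.0 and 57.9 FPKM with PE, 98.9 and 104 with PE+TSA, and 111 and 106 with PE+TSA+shJIP1. Both PE libraries lay below the other 4, with a log2 difference of 0.53 ± 0.23 for TSA (adjusted p = 0.283). Psma4, at the other end of the alpha subunits for TSA, read 195 and 122 FPKM, 191 and 123, and 169.7 and 143 in the same order of groups. Its PE and PE+TSA libraries covered the same range, and the log2 difference was −0.01 ± 0.32 (adjusted p = 0.989).

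With the hairpin, the alpha subunits at the extremes were Psma3 and Psma7. Psma3 stood at 26.8 and 20 FPKM with PE, 31.4 and 21.2 with PE+TSA, and 13.7 and 8.34 with PE+TSA+shJIP1. Its hairpin libraries were below all 4 others, and the log2 difference was −1.20 ± 0.33 for the hairpin, with the smallest adjusted p of any proteasome feature in that comparison (0.189). Its combined difference was −1.05 ± 0.33 (adjusted p = 0.095). Psma3 was also the lowest alpha subunit in every library, and in hairpin replicate 2 the highest alpha subunit stood 19 times above it. Psma7 read 103 and 47.2 FPKM with PE, 81.1 and 74.3 with PE+TSA, and 111 and 103 with the hairpin. The hairpin libraries lay above the PE+TSA libraries, and PE replicate 1 reached the lower of them (hairpin log2 difference 0.45 ± 0.36, adjusted p = 0.612). The other alpha subunits, Psma1 and Psma5, had TSA log2 differences of 0.26 and 0.40.

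The 8 constitutive beta features, from 7 genes, had median log2 differences of 0.42 with TSA, 0.07 with the hairpin and 0.44 combined. Without PE replicate 2 the TSA median was 0.22, with 6 higher and 2 lower. Psmb7 encodes the subunit with trypsin-like activity. Its listing 1 stood at 91.1 and 70.1 FPKM with PE, 126 and 136 with PE+TSA, and 148 and 154 with PE+TSA+shJIP1. The 3 groups did not overlap and the hairpin libraries were highest. The feature rose in the combined comparison, with a log2 difference of 0.91 ± 0.20 (95% interval 0.41 to 1.40, adjusted p = 0.049), close to the threshold. For TSA alone it was 0.70 ± 0.20 (adjusted p = 0.162), and for the hairpin 0.21 ± 0.20 (adjusted p = 0.698).

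That single call did not hold in each setting tried. Leaving out PE replicate 2, either PE+TSA library or either hairpin library ended it, with adjusted p for Psmb7 listing 1 between 0.0914 and 0.223 and log2 differences between 0.72 and 0.93. Listing 2 of Psmb7 stood higher, at 408 and 494 FPKM with PE, 433 and 522 with PE+TSA, and 610.5 and 582 with PE+TSA+shJIP1. Its hairpin libraries were above all others, while its PE and PE+TSA libraries overlapped. Listing 2 had a log2 difference of 0.08 ± 0.22 for TSA (adjusted p = 0.864), 0.33 ± 0.22 for the hairpin (adjusted p = 0.557) and 0.41 ± 0.22 combined (adjusted p = 0.266). It was 3.43 to 7.05 times as high as listing 1 in each library. No source used here says how reads were shared between the listings, so the level of the gene as a whole is uncertain.

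The 250 bases before the annotated start of Psmb7 are shown because this gene held the only call. They lie at chr3:42827471-42827720 on the minus strand of GRCr8 in the RefSeq promoter table, a build other than that of the expression values. Capitals mark matches to CCAAT, on either strand, and to CCGGAAG, the core of sites bound by ETS factors.
Psmb7 upstream: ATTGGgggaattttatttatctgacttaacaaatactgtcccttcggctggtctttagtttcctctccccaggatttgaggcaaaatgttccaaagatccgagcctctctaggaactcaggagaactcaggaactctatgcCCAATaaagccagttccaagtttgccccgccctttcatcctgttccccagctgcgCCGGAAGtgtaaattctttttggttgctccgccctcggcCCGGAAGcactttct
CCGGAAG stands in it at 2 places close to the start. Over windows from 250 bases before to 50 bases after the start, searched on both strands, 14 of 42 proteasome genes with an entry held CCGGAAG (33.3%), against 18.1% of the promoters of features tested and 8.75% of all promoters. CCAAT was in 21 of 42 (50%), against 37.5% of either set. Both motifs can occur together, as here, and a match is a description only.

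Psmb6, with caspase-like activity, was the beta feature with the largest TSA difference. It stood at 27.4 and 21.5 FPKM with PE, 39.4 and 41.4 with PE+TSA, and 33.9 and 36.6 with PE+TSA+shJIP1. The 3 groups did not overlap, and the PE+TSA libraries were highest. The TSA log2 difference was 0.71 ± 0.21 (unadjusted p = 0.0131, adjusted p = 0.162) and the hairpin difference −0.19 ± 0.21 (adjusted p = 0.72). Psmb5, the chymotrypsin-like subunit, read 132 and 124 FPKM with PE, 126 and 97.2 with PE+TSA, and 116 and 118 with the hairpin. Its groups overlapped for TSA, with a log2 difference of −0.21 ± 0.20 (adjusted p = 0.605). Of the structural beta subunits, Psmb4 had the largest combined difference, 0.85 ± 0.26 (adjusted p = 0.0894), and both PE libraries, at 42.3 and 28.3 FPKM, lay below the other 4, at 48.0 to 69.6 FPKM. Psmb1, Psmb2 and Psmb3 had TSA log2 differences of 0.33, 0.50 and 0.25 and hairpin differences of −0.12, −0.04 and 0.06.

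The constitutive subunits are known targets of the factor NRF1 through antioxidant response elements. The core letters of that element, TGACNNNGC, were searched on both strands of the same windows and were found for 8 of 42 proteasome genes (19%), against 15.1% of the promoters of features tested and 12.1% of all. One match each of 5 of these genes follows, with 10 bases on each side and the match in capitals. They lie at chr6:95219727-95219755 (plus strand), chr15:32047421-32047449 (minus), chr10:55737854-55737882 (plus), chr9:94157796-94157824 (plus) and chr12:39018370-39018398 (minus), all in GRCr8.
Psma3: tctgtggcctGCCGGGTCAgcaccatgag
Psmb5: cgtgaagctgTGACGTCGCggcgttgccc
Psmb6: ctaaagagagTGACGGAGCgctttacgac
Psmd1: accagatctaTGACCTCGCgagaattata
Psmd9: acttagctctGCCGGGTCAtctgaaaacc
In Psma3 and in this match of Psmd9 the element reads on the opposite strand. Psmd1 and Psmd9 each held another match, and Psmb2, Psmd3 and Psme4 held the element too. The TSA log2 differences of the 5 genes shown ranged from −0.21 for Psmb5 to 0.71 for Psmb6.

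The median level of all features tested was 10.4 to 12.1 FPKM by library. Of the immunoproteasome subunits, Psmb8 and Psmb10 averaged below it, at 5.50 and 5.58 FPKM, and Psmb9 above it, at 14.4. The median size of the log2 difference between the libraries of a group was 0.30 for these genes with PE, 1.31 with PE+TSA and 0.68 with the hairpin, beside 0.39, 0.30 and 0.30 over all features tested. None of the 3 tested passed the adjusted threshold in any comparison, and their median log2 difference was −0.53 with TSA, 0.31 with the hairpin and −0.48 combined. Psmb8, which replaces Psmb5, stood at 7.25 and 7.94 FPKM with PE, 8.69 and 2.62 with PE+TSA, and 4.23 and 2.26 with PE+TSA+shJIP1. PE+TSA held both the highest and nearly the lowest value (TSA log2 difference −0.53 ± 0.52, adjusted p = 0.603), and both hairpin libraries lay below both PE libraries (combined −1.06 ± 0.52, adjusted p = 0.223). Psmb9, which replaces Psmb6, read 19.3 and 9.87 FPKM with PE, 15.6 and 5.69 with PE+TSA, and 25.0 and 11.2 with PE+TSA+shJIP1. In each group replicate 2 was lower, and all groups overlapped (TSA −0.50 ± 0.58, adjusted p = 0.667, and hairpin 0.76 ± 0.58, adjusted p = 0.602).

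Psmb10, which replaces Psmb7, stood at 8.35 and 6.61 FPKM with PE, 5.58 and 2.62 with PE+TSA, and 6.33 and 3.99 with PE+TSA+shJIP1. Both PE libraries were above the other 4, with a TSA log2 difference of −0.79 ± 0.40 (adjusted p = 0.347). PE+TSA replicate 2 was below replicate 1 for all 3 genes, by a median of −1.31 on the log2 scale, where the median over all features tested was −0.00. Without PE+TSA replicate 2 the TSA median of the 3 genes was 0.16, with 2 higher and 1 lower. The same library was low for the list of antigen presentation and interferon-induced genes: all 21 features tested were lower in it than in PE+TSA replicate 1, by a median of −1.89. In log2(FPKM + 1), the median of that list was 5.28 and 5.36 with PE, 5.14 and 2.64 with PE+TSA, and 4.55 and 4.02 with PE+TSA+shJIP1. Of the 21 features, from 20 genes, 0 passed with TSA in limma, beside 0.811% of all features, and 0 with the hairpin, beside 0.29%. At an unadjusted p under 0.05, 5 were lower with TSA and 1 higher with the hairpin, beside 7.1% and 5.93% of all. Combined, 6 were lower at that p, beside 13.6% of all. The groups did not overlap for 14 lower and 2 higher with TSA, beside 21.1% and 29.5% of all. For the combined comparison these were 18 lower and 1 higher, beside 26.7% and 33.9%. In both comparisons 19 of the 21 features were lower and 2 higher, where 42.9% and 44.4% of all were lower. The combined median of the list was −1.03. After adjustment, 1 was called lower in the combined comparison, beside 4.16% of all: Erap1, which trims peptides for presentation (log2 difference −1.60, adjusted p = 0.0395). That call was lost with any 1 library left out (adjusted p 0.0722 to 0.191). The list's TSA median was −1.41, and the 2 listings of Ifit3 had TSA differences of opposite sign, −2.07 and 2.65, the latter with a 0 in PE replicate 2. Tap1, the peptide transporter gene beside Psmb9, read 17.2 and 19.8, 16.0 and 3.70, and 13.8 and 6.24 FPKM in the same order. In the hairpin group, too, replicate 2 was below replicate 1 for all 3 immunoproteasome genes (median −0.68) and all 21 interferon features (median −0.77). All 7 cardiomyocyte markers were lower in replicate 2 than in replicate 1, by a median of −1.02 with PE+TSA and −1.05 with the hairpin. In PE+TSA the 4 tested macrophage markers differed by a median of 0.12, with 3 higher and 1 lower in replicate 2. In the hairpin group all 4 were lower in replicate 2, by a median of −0.59. Immune cells are known to carry much immunoproteasome, and the part of other cells in these values was not tested.

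**Figure D4:**
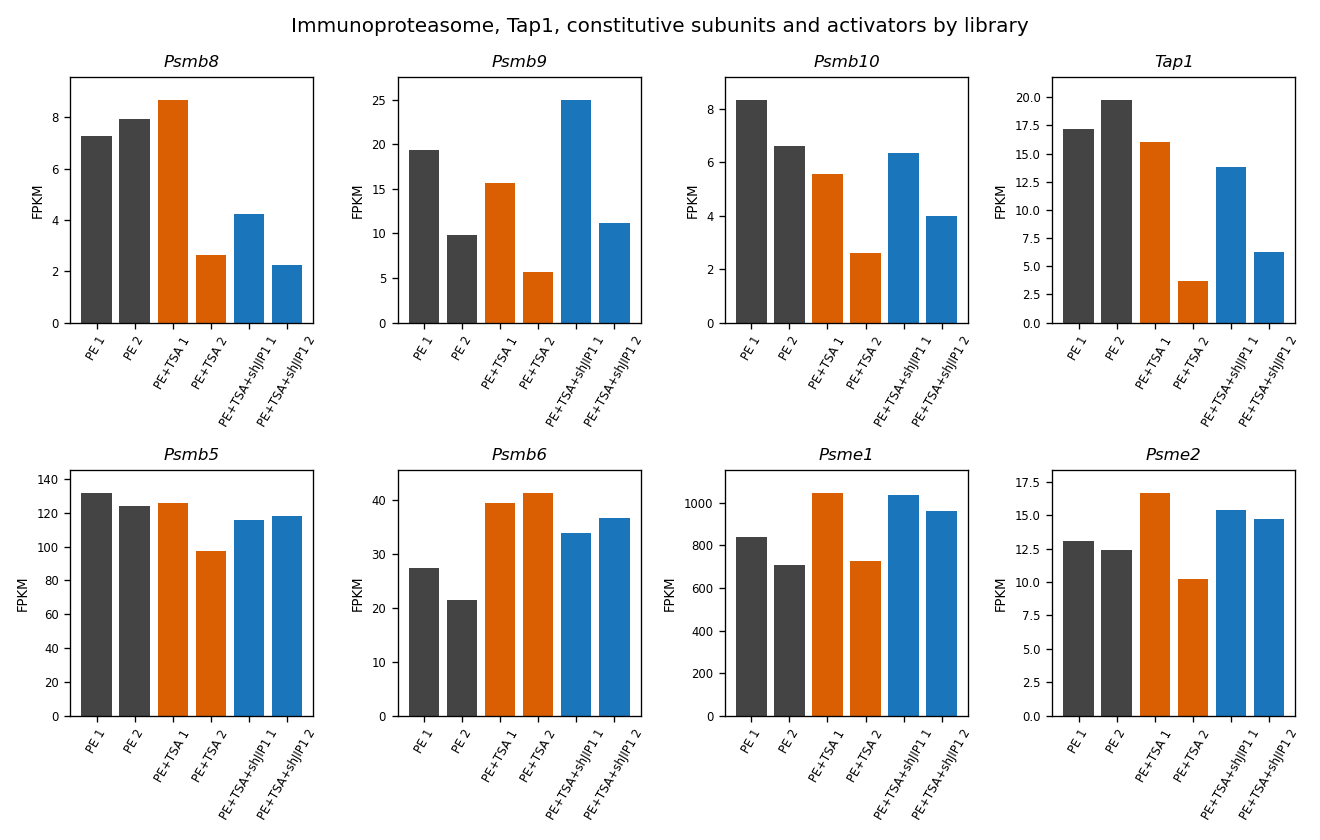
Level in FPKM (y axes from 0) of the immunoproteasome subunits Psmb8, Psmb9 and Psmb10, of Tap1, of the constitutive subunits Psmb5 and Psmb6, and of the activator genes Psme1 and Psme2 in each of the 6 libraries (1 bar per library, colours for groups). PE+TSA replicate 2 is below replicate 1 for 7 of the 8 genes plotted, the exception being Psmb6, at 39.4 and 41.4 FPKM. It was below replicate 1 for 29 of the 47 proteasome features and 5180 of the 10359 features tested.

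Each immunoproteasome gene was set beside the constitutive gene it replaces, as a percentage within the library. Psmb9 was 70.7% and 45.9% of Psmb6 with PE, 39.6% and 13.7% with PE+TSA, and 73.7% and 30.7% with PE+TSA+shJIP1. Psmb10 was 9.16% and 9.43% of Psmb7 listing 1 with PE, 4.43% and 1.93% with PE+TSA, and 4.28% and 2.6% with the hairpin, so that both PE libraries lay above the others. Of listing 2 it was 2.05% and 1.34%, 1.29% and 0.502%, and 1.04% and 0.686%. Psmb8 was 5.51% and 6.39% of Psmb5 with PE, 6.91% and 2.7% with PE+TSA, and 3.65% and 1.92% with the hairpin. The share was therefore largest for Psmb9 in every library. Psmb6, against which it was set, was itself the lowest constitutive beta feature in every library. In PE replicate 1 it stood at 27.4 FPKM, where the median of these features was 92.2. These ratios are descriptions and were not tested.

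Interferon response elements are shown for the genes known to be induced by interferon that held a match, among the immunoproteasome and PA28 genes and Tap1. A pair of GAAA runs with any 2 bases between them, searched on both strands, was in 7 of 42 proteasome promoters (16.7%), against 2.85% of the promoters of features tested and 3.92% of all. The matches lie on the minus strand of GRCr8 at chr20:4657016-4657045 (Psmb8), chr19:50743346-50743375 and chr19:50743290-50743319 (Psmb10), chr15:33052785-33052814 (Psme2) and chr20:4668645-4668674 (Tap1). Capitals mark the match, which in Psmb8 and Tap1 reads on the opposite strand.
Psmb8: gtgctgtggcTTTCGCTTTCacttccttgt
Psmb10, first match: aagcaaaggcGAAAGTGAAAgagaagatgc
Psmb10, second match: agtggggggtGAAAGCGAAAgtaggaagcg
Psme2: cctggagagtGAAAGCGAAAgctggggctg
Tap1: cggtggctgcTTTCGGTTTCttcttcctct
Psmb9 and Psme1, also known to be induced by interferon, held no match in their windows. The start of Psmb9 and that of Tap1 face away from each other, 456 bases apart, and their windows overlap by 44 bases, so the Tap1 match lies in the stretch between both genes. The other proteasome genes with a match were Psma4, Psmb3, Psmd7 and Psmg4.

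The 6 ATPases of the 19S base, which unfold substrates and open the gate of the core, had median log2 differences of −0.08 with TSA, −0.07 with the hairpin and −0.24 combined, and none passed the threshold. Psmc3 had the highest mean level, at 137 and 121 FPKM with PE, 147 and 115 with PE+TSA, and 127 and 113 with PE+TSA+shJIP1. Its groups overlapped, and the TSA log2 difference was 0.02 ± 0.21 (adjusted p = 0.975). Psmc5 read 76.8 and 82.6 FPKM with PE, 55.6 and 64.3 with PE+TSA, and 64.8 and 57.0 with the hairpin. Both PE libraries were the highest, with a TSA log2 difference of −0.41 ± 0.19 (adjusted p = 0.321). Psmc2 was at 97.9 and 67.1 FPKM, 91.5 and 87.4, and 94.0 and 83.6 in the same order. Its PE libraries lay on both sides of the other groups (TSA 0.14 ± 0.24, adjusted p = 0.775).

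For the hairpin, Psmc1 and Psmc4 marked the ends of the ATPases. Psmc1 stood at 93.2 and 71.7 FPKM with PE, 83.5 and 69.7 with PE+TSA, and 102 and 103 with PE+TSA+shJIP1. Both hairpin libraries were above the other 4 (hairpin log2 difference 0.42 ± 0.21, adjusted p = 0.434). Psmc4 read 50.1 and 31.8 FPKM with PE, 41.2 and 35.3 with PE+TSA, and 30.8 and 26.6 with the hairpin. Its hairpin libraries were the lowest (−0.40 ± 0.27, adjusted p = 0.546). Psmc6, the remaining ATPase, was the lowest of the 6 in 5 libraries. Without PE replicate 2 all 6 ATPases were lower with TSA, by a median of −0.32.

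The 11 non-ATPase subunits of the 19S particle include its scaffold, its ubiquitin receptor Psmd4 and its deubiquitinase Psmd14. Their median log2 difference was 0.21 with TSA, where 10 were higher and 1 lower, −0.02 with the hairpin and 0.06 combined. Without PE replicate 2 the TSA median was 0.06, with 7 higher and 4 lower. The exception was Psmd8, a lid subunit, at 62.0 and 68.0 FPKM with PE, 40.1 and 34.3 with PE+TSA, and 43.1 and 40.1 with PE+TSA+shJIP1. Both PE libraries stood clear above the other 4. The TSA log2 difference of −0.79 ± 0.19 had the smallest adjusted p of any proteasome feature in that comparison (0.125), and it lay between −0.90 and −0.68 when each library was left out. Its combined difference was −0.63 ± 0.19 (adjusted p = 0.0894).

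Psmd1, the large scaffold subunit of the base, had the highest mean of the non-ATPases. It stood at 108 and 105 FPKM with PE, 127 and 137 with PE+TSA, and 137 and 129.6 with PE+TSA+shJIP1. Both PE libraries were the lowest (TSA log2 difference 0.31 ± 0.18, adjusted p = 0.393). Psmd14, which removes the ubiquitin chain, read 75.5 and 43.4 FPKM with PE, 76.2 and 74.8 with PE+TSA, and 60.4 and 51.0 with the hairpin. PE replicate 2 was low and PE replicate 1 level with PE+TSA (TSA 0.39 ± 0.29, adjusted p = 0.492), and both hairpin libraries were below both PE+TSA libraries.

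Psmd4 was the non-ATPase with the largest positive hairpin difference. It stood at 75.9 and 58.8 FPKM with PE, 77.9 and 80.9 with PE+TSA, and 105 and 94.4 with PE+TSA+shJIP1. The groups did not overlap and followed each other upward in this order (hairpin 0.33 ± 0.21, adjusted p = 0.519). Psmd7, a lid subunit and partner of Psmd14, read 103 and 88.5 FPKM, 99.6 and 106, and 77.6 and 72.0 in the same order. Both hairpin libraries were the lowest, with a hairpin log2 difference of −0.45 ± 0.19 (unadjusted p = 0.0501, adjusted p = 0.337). The other 6 non-ATPases, Psmd2, Psmd3, Psmd6, Psmd11, Psmd12 and Psmd13, had TSA log2 differences of 0.01 to 0.38 and hairpin differences of −0.25 to 0.20.

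The 3 chaperones that assemble the 19S base had a median log2 difference of 0.12 with TSA, 0.65 with the hairpin and 1.21 combined, and none passed the threshold. Psmd10, also called gankyrin, binds an ATPase of the base and is known as an oncoprotein in liver. It stood at 28.5 and 49.5 FPKM with PE, 38.8 and 25.2 with PE+TSA, and 62.5 and 156 with PE+TSA+shJIP1. Both hairpin libraries were above the other 4, and they were far apart from each other. The hairpin log2 difference was 1.63 ± 0.49, the largest of the 47 features (95% interval 0.43 to 2.82, adjusted p = 0.22). It was 0.97 without hairpin replicate 2 and 2.28 without hairpin replicate 1. Psmd9 read 20.5 and 7.69 FPKM with PE, 17.2 and 21.5 with PE+TSA, and 32.1 and 29.4 with the hairpin. Both hairpin libraries were the highest and PE replicate 2 the lowest (hairpin 0.65 ± 0.43, adjusted p = 0.536, and combined 1.21 ± 0.43, adjusted p = 0.119). Psmd5 went the other way, at 31.8 and 23.9, 25.2 and 35.7, and 20.4 and 16.3 FPKM. Its hairpin libraries were the lowest (−0.68 ± 0.27, unadjusted p = 0.0446, adjusted p = 0.321).

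Among the chaperones that pair the alpha subunits of the 20S core, 3 were measured. Psmg2 stood at 22.0 and 14.2 FPKM with PE, 22.2 and 29.4 with PE+TSA, and 19.3 and 12.5 with PE+TSA+shJIP1. Its PE+TSA libraries were the highest (TSA 0.50 ± 0.33, adjusted p = 0.437, and hairpin −0.68 ± 0.33, adjusted p = 0.4). Psmg1, the partner of Psmg2, read 20.5 and 25.3, 18.0 and 20.9, and 17.9 and 27.6 FPKM, and its groups overlapped in each comparison. Psmg4 was at 12.6 FPKM in PE replicate 1 and listed at 0 in PE replicate 2, 8.82 and 3.23 with PE+TSA, and 2.50 and 4.19 with the hairpin. The value of 0 came from the shallow library, and the TSA log2 difference had the widest error of the 47 proteasome features, 0.81 ± 1.16 (adjusted p = 0.732). Pomp, the maturation factor of the core, was listed at 0 to 1.05 FPKM over its 2 listings and was not tested. Rps27a, a ubiquitin gene that all cells use, was listed at 0 in all 6 libraries, so a value of 0 in this table can be a failed estimate.

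The activators showed no called difference, and their levels were far apart. Psme1, the alpha subunit of PA28, was the most abundant proteasome feature, at 842 and 709 FPKM with PE, 1049 and 726 with PE+TSA, and 1038 and 960.1 with PE+TSA+shJIP1. Psme2, the beta subunit of the same ring, read 13.1 and 12.4 FPKM with PE, 16.7 and 10.2 with PE+TSA, and 15.4 and 14.7 with the hairpin. PE+TSA covered the widest range for both genes, and both hairpin libraries were above both PE libraries. The TSA log2 differences were 0.18 ± 0.27 (adjusted p = 0.752) and 0.04 ± 0.28 (adjusted p = 0.955). Psme1 was 57.3 to 71.2 times as high as Psme2 in each library, although their proteins join in 1 complex. The cause of this gap was not tested.

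Psme3, the nuclear activator PA28 gamma, stood at 59.0 and 50.8 FPKM with PE, 53.8 and 61.0 with PE+TSA, and 49.8 and 45.0 with PE+TSA+shJIP1. Its hairpin libraries were the lowest (hairpin −0.27 ± 0.20, adjusted p = 0.581). Psme4, the large activator PA200, read 85.5 and 75.4, 105 and 82.8, and 81.3 and 82.8 FPKM. Its PE and PE+TSA libraries overlapped (TSA 0.21 ± 0.20, adjusted p = 0.598). Psmf1 encodes PI31, named as an inhibitor of the core. It stood at 27.2 and 25.6 FPKM with PE, 36.9 and 20.6 with PE+TSA, and 13.3 and 15.1 with PE+TSA+shJIP1. Both hairpin libraries were below the other 4, with log2 differences of −0.91 ± 0.30 for the hairpin (unadjusted p = 0.0224, adjusted p = 0.247) and −0.85 ± 0.30 combined (adjusted p = 0.123). The hairpin difference was −1.32 without PE+TSA replicate 2 and −0.51 without PE+TSA replicate 1.

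The name rule also took in Psmc3ip, whose protein binds an ATPase of the base but is known for its part in meiotic recombination. It stood at 7.63 and 12.2 FPKM with PE, 2.72 and 4.82 with PE+TSA, and 2.38 and 5.65 with PE+TSA+shJIP1. Both PE libraries were above the other 4, with log2 differences of −1.20 ± 0.46 for TSA (adjusted p = 0.237) and −1.17 ± 0.46 combined (adjusted p = 0.147). Leaving it out did not change a count of called proteasome features.

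Genes that work with the proteasome were followed through a list of 42 symbols of ubiquitin genes, shuttle factors, deubiquitinases and regulators. It had 36 features in the table and 32 tested, of which 0 passed with TSA (0.811% of all features) and 0 with the hairpin (0.29%). At an unadjusted p under 0.05, 1 was higher and 3 lower with TSA, beside 11.6% and 7.1% of all, and 2 higher and 3 lower with the hairpin, beside 5.93% and 8.94%. In the combined comparison 1 fell, Ubqln4, a shuttle that brings ubiquitinated proteins to the proteasome, beside 4.16% of all features called lower. Ubqln4 stood at 25.4 and 25.2 FPKM with PE, 16.1 and 14.7 with PE+TSA, and 11.8 and 9.22 with PE+TSA+shJIP1. The groups did not overlap, and the combined log2 difference was −1.20 ± 0.23 (adjusted p = 0.0331). With any 1 of the 6 libraries left out the call was lost, at adjusted p of 0.0604 to 0.182 and log2 differences of −1.36 to −1.04. The list's median log2 difference was 0.01, 0.10 and 0.02 in the TSA, hairpin and combined comparisons.

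With TSA, Ubqln4 had a log2 difference of −0.68 ± 0.23 (unadjusted p = 0.0225), and the smallest p belonged to Uba6. Uba6, a ubiquitin-activating enzyme, read 21.6 and 14.1 FPKM with PE, 51.0 and 31.9 with PE+TSA, and 31.8 and 28.1 with the hairpin. Both PE libraries were the lowest (TSA 1.16 ± 0.31, adjusted p = 0.147). With the hairpin, the 3 smallest p belonged to Nploc4, Bag6 and Rad23b. Nploc4, a cofactor of the unfoldase VCP, read 30.4 and 26.2, 29.1 and 26.7, and 15.4 and 13.8 FPKM. Its hairpin libraries were at about the same low level and clear of the other 4 (−0.89 ± 0.21, adjusted p = 0.149). Bag6, a chaperone for mislocalised proteins, stood at 139 and 112, 151 and 188, and 93.8 and 98.9 FPKM (hairpin −0.80 ± 0.21, adjusted p = 0.18). Rad23b, another shuttle, read 164 and 139, 149.9 and 159, and 224 and 213 FPKM, with its hairpin libraries the highest (0.50 ± 0.19, adjusted p = 0.303).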

How the data were processed

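Libraries came from kit-extracted RNA and an Illumina preparation, per the labels' protocols. FPKM per gene and library were deposited by the authors in a single table, and Cufflinks and the build rn6 are named, without version or role, per the submitters' processing notes. The aligner, annotation and strand setting were not given in the sources used here. Reads of similar or overlapping genes cannot be told apart. The FPKM keep no totals, and relative depth came from the steps between low values, with a wider range of values for PE replicate 2.

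Features averaging 1 FPKM or more were tested on log2(FPKM + 1) in limma 3.58.1 under R 4.3.3, with 1 mean per group, all 6 libraries, 3 residual and 3.27 prior degrees of freedom, and limma's trended prior variance. Two-sided p-values were adjusted (Benjamini-Hochberg) over all 10359 features within each comparison, with a threshold of 0.05. The procedure was tested on simulated data. Errors are standard errors of the log2 difference, and 2 libraries per group limit the precision.

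Values in every library are given for members called, for the member of each role with the highest mean and those with the highest and lowest TSA and hairpin difference, for immunoproteasome, activator and inhibitor genes, for repeated symbols, and for the partners called or with the 3 smallest p, of which 1 is not reported here. The members, roles and lists were chosen with earlier results of these data known, and the partner and interferon lists are descriptions. Psma1, Psma5, Psmb1, Psmb2, Psmb3, Psmb4, Erap1, Tap1, Ifit3, Thy1, Pomp and Rps27a are named beyond that rule, after their values were seen. Promoter sequences come from RefSeq (GRCr8), where 42 of 47 symbols matched, and were used for sequence only. The promoters to print, and the interferon and ETS motifs, were chosen with the values known. A comparison of protein sequences was planned and not run. Alternatives were the pseudocount, the filter, scaling, the libraries in the fit, the replicate block, leaving out each library, and leaving out repeated symbols or Psmc3ip.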

Additional observations from a re-analysis of the deposited data

How the results depend on the processing

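The number of all features called with TSA was 84, and it was 3 with no filter, 5 with only the 4 libraries compared, 28 with the replicate block and 6 to 250 when each library was left out in turn. For the hairpin it was 30, against 0, 8 and 18 in the same settings and 8 to 19 when each library was left out. For the combined comparison it was 857, against 374 with no filter, 4 with only the 4 libraries compared, 1063 with the replicate block, and 18 to 984 when each library was left out. The 1 proteasome feature called there, Psmb7 listing 1, became 0 with a pseudocount of 0.1 (adjusted p 0.0516 for it), with no filter (0.0682), with only the 4 libraries compared (0.0929) and without symbols on several rows, which leaves Psmb7 out. Leaving out each library gave 0 to 3 proteasome features called.

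Same-numbered libraries were not paired by the labels, and their deviations correlated by 0.04 to 0.12. With the replicate block, 3 proteasome features were called in the combined comparison, Psmb7 listing 1, Psmb4 (adjusted p = 0.0482) and Psma3 (adjusted p = 0.0411). Without PE replicate 1 there were also 3, with Psma7 (log2 difference 1.16, adjusted p = 0.0411) and Psmd9 (1.87, adjusted p = 0.0293) beside Psmb7 listing 1. The count of proteasome features called with TSA and with the hairpin was 0 in all settings run. The median of all features moved from 0.10 with TSA to 0.04 under trimmed-mean scaling and to −0.02 under quantile normalization, and that of the proteasome features from 0.15 to 0.08 and 0.15. The 5 features whose TSA difference changed sign under trimmed-mean scaling were Psmc3, Psmd12, Psme2, Psme3 and Psmf1, none above 0.07 in size. In fits without 1 library, the lone library of a group is assumed to vary like the other groups. Low depth in PE replicate 2 limits what the PE values of low genes can show.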
